A study of Mus musculus with 148 samples.

Results

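Immune cells of the primary tumor were compared with immune cells of the premetastatic lung (Pre-MET) of the same mice. The mice, of strain C57/b6 PA-GFP, which carries a photoactivatable GFP, were injected into the right inguinal mammary gland with EO771-tdTomato cells, a mouse breast cancer line, mixed with Matrigel, at 8 weeks of age. Tumors were resected at 3 weeks. The cells were taken by the labels Primary and Pre-MET from the mice that gave both tissues, which were the mice numbered 8, 9 and 10. The tumor plates carry a further label, the area, which reads MET, the word used for metastasis, whereas their status and sample type name the primary tumor. Status was followed. These were 2440 of the 23425 annotated immune cells of the series, on 15 of its 148 plates, with 7 plates of primary tumor and 8 of Pre-MET lung. Each tumor contributed 295 to 404 cells and each lung 452 to 486 cells. All cells were sorted as CD31-negative and CD45-positive without photoactivation, so no position within the tissue was recorded. The Pre-MET lungs were whole lungs checked for the absence of tdTomato signal, and their mice still bore the tumor with which they were compared. Both tissues therefore came from mice with EO771 tumors, and no tumor-free mouse is part of the comparison. All tumors grew from 1 cell line at 1 site, which limits them as a model of tumors that arise in place. A tumor of a further animal, mouse 38, had no Pre-MET lung and was used only in an alternative.

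Solid tumors are fed with monocytes from the blood, which lose their blood-cell program as they settle and become macrophages or antigen-presenting cells. The lung before metastasis holds many blood-borne cells, among them inflammatory monocytes, patrolling monocytes that crawl along the vessel wall, neutrophils and naive T cells. Regulatory T cells (Treg), which restrain other T cells, and T cells with checkpoint receptors are well known in breast tumors. Type I interferon response genes, the MHC class II genes with which myeloid cells present antigen to CD4 T cells, and the glycolysis genes that respond to low oxygen are among the programs most often followed in such cells.

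Depth and sequencing batch differed between the tissues. Primary tumor cells held a median of 1972 to 3689.5 UMIs (transcript molecules) per cell and Pre-MET cells a median of 930.0 to 1085.5. The median percentage of mitochondrial UMIs per cell was 2.78, 2.78 and 2.74 in the lungs of mice 8, 9 and 10. In their tumors it was 1.59, 2.6 and 2.2. In monocytes alone these were 2.51, 2.87 and 2.64 against 1.33, 1.86 and 1.84. Tumors were dissociated with another program of the tissue dissociator than lungs. The Pre-MET plates belonged to a pair of sequencing batches, the tumor of mouse 8 to another batch, and the tumors of mice 9, 10 and 38 to a further one that held only primary tumors. No batch therefore held both tissues, and tissue and sequencing batch cannot be told apart in any comparison of this text. No 2 plates had identical sums, and no well identifier was shared.

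A partial measure of the batch came from relapse-free lungs, which are whole lungs of other mice sorted through the same gate. Mice 6 and 7 were sequenced with the Pre-MET plates and mouse 35 with the tumor of mouse 8. A gene was termed batch-linked when its level differed at least 2-fold between these lungs in the same lineage, with 10 CPM (UMIs per 1000000 UMIs of the summed lineage) added to each level. This measure has no test, since 1 mouse stands on 1 side. It covers the batch of the tumor of mouse 8 only. The batch of the tumors of mice 9 and 10 held no lung, so the lack of a link says nothing about that batch. A gene below 10 CPM in both sets of lungs cannot reach 2-fold on it, and for such a gene the lack of a link says nothing. Of 845 genes lower in tumor monocytes, 456 (54.0%) were also lower in the relapse-free lung of the later batch. In T cells, this held for 207 of 302 lower genes (68.5%), and in B cells for 41 of 49 (83.7%). Genes higher in tumors were batch-linked in the same direction less widely, with 216 of 735 (29.4%) in monocytes, 62 of 186 (33.3%) in T cells and 12 of 22 (54.5%) in B cells. Among genes not called in monocytes, 10.7% were lower and 24.7% higher in the later batch. Among those not called, these shares were 9.08% and 15.1% in T cells and 16.9% and 21% in B cells. The share of batch-linked rises lay above that of uncalled genes in each of these lineages, and was nearest to it in monocytes. Relapse-free DCs of the later batch numbered too few for a value. For the leading genes, the batch measure is given beside the result.

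**Figure D1:**
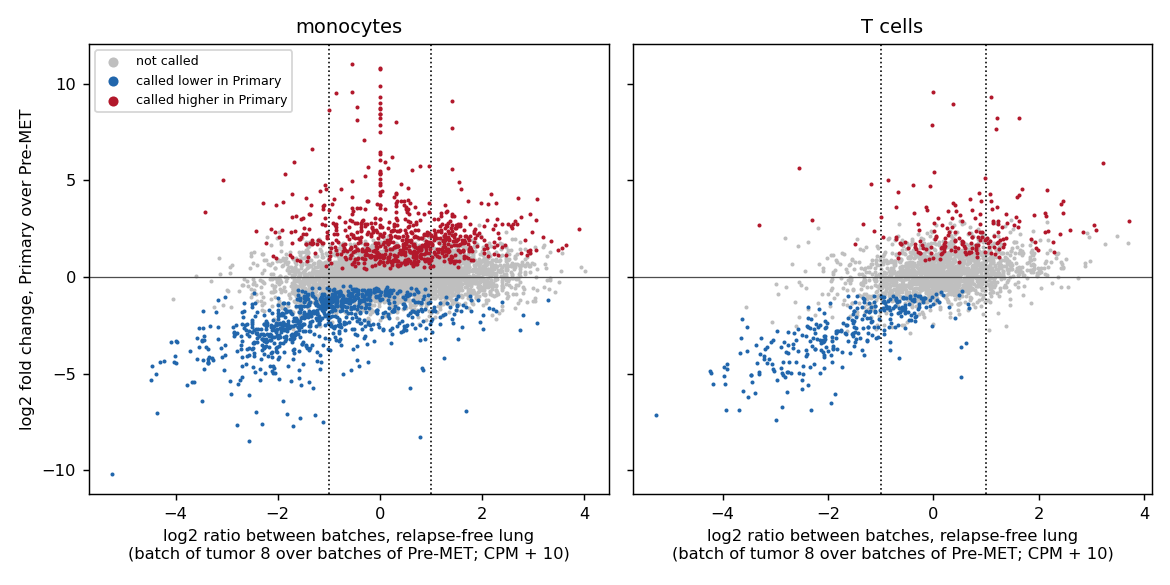
Log2 fold change in primary tumors over Pre-MET lungs (vertical axis) against the log2 ratio between sequencing batches in relapse-free lungs (horizontal axis, 10 CPM added), 1 point per gene, colored by call. Many of the genes called lower in tumors sit to the left of 0, where the relapse-free lung of the later batch was also lower (456 of 845 in monocytes past 2-fold).

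Tumors held more macrophages, B cells and DCs among their immune cells, and lungs more monocytes and neutrophils. Monocytes, the blood-borne precursors of many tumor macrophages, made up 58.4%, 43.6% and 59.9% of the Pre-MET cells of mice 8, 9 and 10, and 41.0%, 32.2% and 30.7% of the tumor cells. The difference was −19.3 ± 9.07 percentage points (mean ± SD, n = 3 mice). Every tumor was lower than every lung, and monocytes were still the largest lineage in both tissues. Macrophages accounted for 1.77%, 0.00% and 0.412% of Pre-MET cells and for 7.80%, 12.5% and 14.9% of tumor cells, a difference of 11.0 ± 4.41 points. The 0 of 468 cells in mouse 9 allows a share of up to 0.641%. Neutrophils went from 12 ± 5.36% in the lungs to 2.57 ± 0.723% in the tumors (mean ± SD, n = 3). Relapse-free lungs also differed between the batches. Neutrophils were 2.15% and 7.52% of their cells in mice 6 and 7 and 25.0% in mouse 35, so the later batch was higher there, and macrophages were 7.69% and 5.75% against 0.677%. The later batch also held normal lung distal to metastases of mice 36 and 37, another tissue state, with 14.3% and 75.0% neutrophils and 0.627% and 0.305% macrophages.

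Antigen-presenting lymphoid and myeloid cells were the other part of the shift. DCs, which prime T cells, were 2.66%, 2.56% and 2.67% of Pre-MET cells and 13.2%, 8.96% and 10.1% of tumor cells, a difference of 8.14 ± 2.17 percentage points (SD, n = 3). Relapse-free lungs held 3.22% and 7.96% DCs in the earlier batches and 1.18% in the later one. B cells made up 4.43%, 7.26% and 4.32% in the lungs and 10.2%, 18.8% and 11.6% in the tumors, with no overlap of the groups. Relapse-free lungs differed in the same direction, with 2.33% and 4.87% B cells in the earlier batches and 10.5% in mouse 35, the lone such lung of the later one. Distal normal lungs of that batch held 8.46% and 1.83% B cells, on both sides of the level of mouse 7. T cells were higher in each tumor than in the lung of its mouse, by 0.0778 to 10.1 percentage points, and the mean difference of 3.85 points was below its SD of 5.46. NK cells had no common direction, with 1 mouse higher and 2 lower in the tumor. For 6 of the 7 lineages all 3 mice moved the same way, which gave p = 0.25 (two-sided exact sign-flip permutation test, 0.292 after Benjamini-Hochberg adjustment over the 7 lineages), the smallest p that 3 pairs can reach. Lineage shares can therefore not pass a threshold of 0.05 here. The tumor of mouse 38, outside the pairs, held 28.7% monocytes, 28.3% T cells, 13.2% macrophages, 11.7% DCs and 10.7% B cells.

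**Figure D2:**
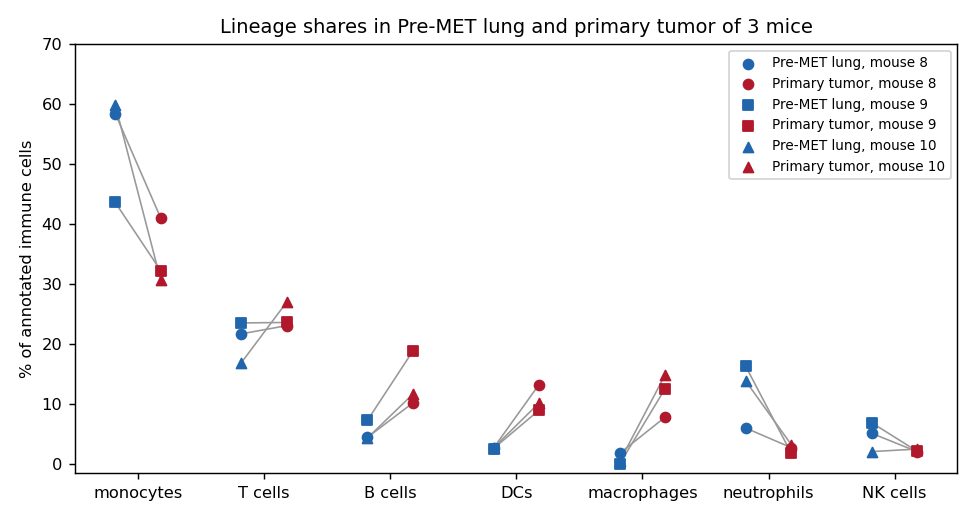
Percentage of annotated immune cells in each lineage, with 1 marker shape per mouse and lines joining the Pre-MET lung and the primary tumor of a mouse. Monocytes and neutrophils lie lower and macrophages, DCs and B cells higher in the tumor of each of the 3 mice, while NK cells cross.

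At the level of the subpopulations named in the annotation, 11 of 23 tested were higher (47.8%) and 7 lower (30.4%) in tumors by edgeR's quasi-likelihood test on cell counts with the mouse as a block. The leading kinds of monocyte differed between the tissues. Mon Fn1, the inflammatory monocytes, had 198, 130 and 204 cells in the lungs of mice 8, 9 and 10 and 15, 13 and 13 in the tumors (log2 ratio −3.22 ± 0.33 SE, adjusted p = 1.60e-11). They were 69.6 ± 5.65% of lung monocytes and 11.6 ± 1.02% of tumor monocytes (SD, n = 3). Mon Thbs1 monocytes, named for thrombospondin 1, had 1, 5 and 3 cells in the lungs and 45, 41 and 61 in the tumors (log2 ratio 4.40 ± 0.46, adjusted p = 2.32e-11). Their share of monocytes was 1.29 ± 1.06% in lungs and 41.4 ± 6.72% in tumors. Mon MHC-II monocytes rose from 17, 16 and 15 cells to 55, 43 and 45 (log2 ratio 2.02 ± 0.35, adjusted p = 1.96e-06), and Mon Ace, the patrolling monocytes, fell from 48, 53 and 69 cells to 6, 11 and 5 (log2 ratio −2.49 ± 0.40, adjusted p = 5.80e-07). Mon Thbs1 and Mon MHC-II were the most numerous monocytes of the tumors and Mon Fn1 and Mon Ace those of the lungs, with no overlap between the groups in any of the 4.

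Several macrophage and neutrophil populations were nearly restricted to 1 tissue. Mac Cd81 macrophages numbered 16, 37 and 50 in the tumors and 1, 0 and 0 in the lungs (log2 ratio 6.57 ± 0.70, adjusted p = 2.64e-11). Mac Isg20 macrophages, which carry interferon response genes, numbered 5, 5 and 8 in the tumors and 0 in every lung (adjusted p = 6.67e-05, or 0.0912 without mouse 9). Mac Cd9, the alveolar macrophages, were few in both tissues, with 7, 0 and 2 cells in lungs and 1, 0 and 0 in tumors (adjusted p = 0.0932). Among neutrophils, Neut Ifit3 had 7, 25 and 23 lung cells against 0, 0 and 1 tumor cells (log2 ratio −5.00 ± 0.87, adjusted p = 2.28e-06), and Neut Lcn2 had 7, 26 and 29 against 2, 1 and 0 (adjusted p = 6.22e-06, or 0.139 without mouse 9). Among the neutrophil populations tested, Neut Ptgs2 had the smallest difference, with 13, 24 and 13 lung cells and 5, 5 and 7 tumor cells (log2 ratio −1.07 ± 0.50, adjusted p = 0.0471). Its share of neutrophils was higher in the tumor of each mouse, at 33.0 ± 14.4% in lungs and 66.6 ± 15.2% in tumors (SD, n = 3). The tumors gave only 8, 6 and 13 neutrophils. Its call was lost when any 1 of the mice was left out (adjusted p = 0.25 without mouse 9), with DESeq2, with Pre-MET plates of 1 batch (log2 ratio −0.63, adjusted p = 0.351) and with cells of at least 1000 UMIs (log2 ratio −0.23, adjusted p = 0.762).

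Among T cells, Treg were higher and naive CD4 Lef1 cells lower in tumors. Treg numbered 0, 1 and 1 in the lungs and 23, 16 and 15 in the tumors (log2 ratio 4.95 ± 0.72, adjusted p = 6.79e-08), which was 0.710 ± 0.634% of lung T cells and 22.6 ± 10.2% of tumor T cells (SD, n = 3). CD4 Lef1, the naive CD4 T cells, went from 57, 77 and 52 cells to 18, 31 and 27 (log2 ratio −0.84 ± 0.32, adjusted p = 0.0151). This call was lost without mouse 9 (adjusted p = 0.139), with DESeq2 (0.174) and with cells of at least 1000 UMIs (0.147). CD8 Lag3, the CD8 T cells with checkpoint receptors, had 1, 0 and 0 lung cells and 5, 1 and 7 tumor cells (adjusted p = 0.00279, or 0.0879 without mouse 9), and the lone tumor cell of mouse 9 met the level of mouse 8's lung. CD4 S100a4 memory-like cells were 18, 7 and 11 in lungs and 9, 19 and 36 in tumors (log2 ratio 1.20 ± 0.41, adjusted p = 0.00787), and this count was lower in the tumor of mouse 8. Its call was lost without mouse 9 (adjusted p = 0.384), without mouse 10 (log2 ratio 0.71, adjusted p = 0.21), with DESeq2 (0.121) and with TMM factors (0.11). CD8 Gzmk (adjusted p = 0.222) and naive CD8 Dapl1 (adjusted p = 0.135) did not pass. With TMM factors, CD8 Dapl1 was called lower (log2 ratio −1.53, adjusted p = 0.0424). The log2 ratio of all CD8 T cells to Treg, with 1 cell added to each, was 4.58, 3.70 and 3.25 in the lungs and −0.34, −0.28 and 1.00 in the tumors. The groups were far apart in this ratio, which is a description, since it restates the Treg counts.

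DC and NK populations differed from each other within their lineage. Migratory DCs (migDC), the mature DCs on their way to lymph nodes, had 0, 0 and 1 cells in lungs and 9, 10 and 10 in tumors (log2 ratio 4.81 ± 0.91, adjusted p = 8.32e-06, or 0.06 without mouse 9). Type 2 conventional DCs (cDC2), which present antigen to CD4 T cells, went from 6, 7 and 5 cells to 25, 14 and 26 (log2 ratio 2.27 ± 0.46, adjusted p = 2.77e-05). The cross-presenting cDC1 had 4, 2 and 4 lung cells and 0, 2 and 3 tumor cells (adjusted p = 0.528). Plasmacytoid DCs had 2, 3 and 3 against 5, 4 and 2 (adjusted p = 0.269). As shares of DCs, both were lower in the tumor of each mouse. The cDC1 share went from 26.9 ± 8.97% to 4.66 ± 4.05%, and the plasmacytoid share from 21.6 ± 4.36% to 10.3 ± 4.74% (SD, n = 3). The cDC2 share (48.9 ± 9.98% and 58.1 ± 9.87%) was higher in the tumor in 2 mice and lower in 1. NK Ncr1 had 21, 32 and 10 lung cells and 1, 3 and 5 tumor cells (adjusted p = 0.000316), whereas NK Xcl1 had 2, 0 and 0 against 5, 4 and 5 (adjusted p = 0.00407). Both NK calls were lost without mouse 9 (adjusted p = 0.182 and 0.139), that of NK Xcl1 also without mouse 10 (0.0572), and that of B cells without mouse 9 (0.000316 with all mice, 0.0668 without). In all, 5 populations were called higher and 3 lower when mouse 9 was left out.

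**Figure D3:**
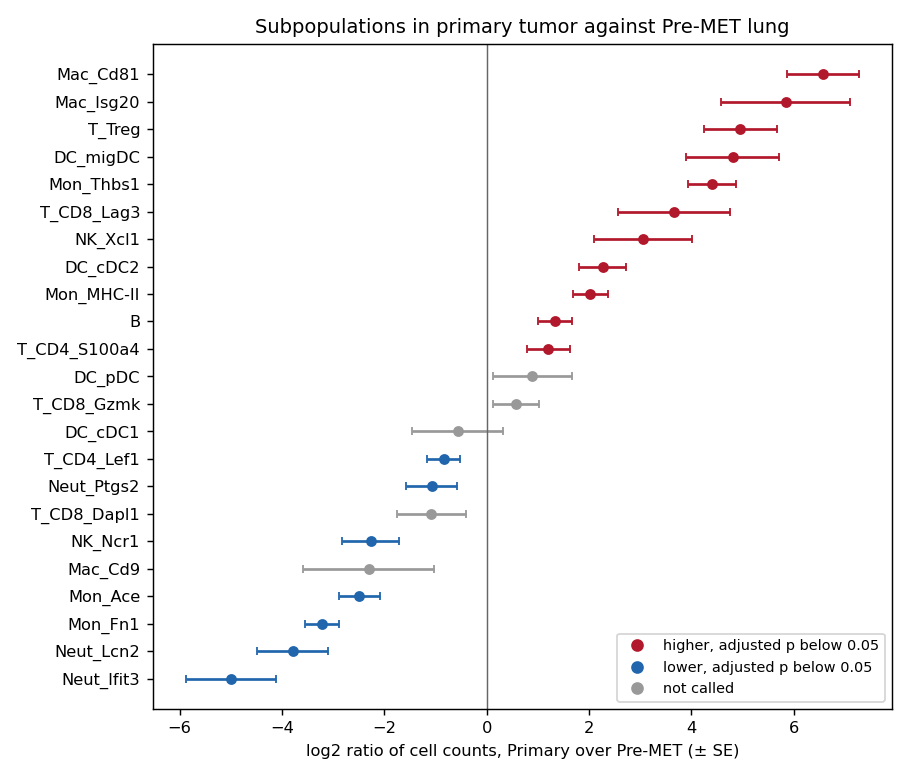
Log2 ratio of cell counts in primary tumors over Pre-MET lungs for each of 23 subpopulations (point, with its standard error as a bar), colored by call at an adjusted p below 0.05. Mac Cd81, Mac Isg20, Treg, migDC and Mon Thbs1 lie farthest to the right, and Neut Ifit3, Neut Lcn2 and Mon Fn1 farthest to the left.

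For expression, the UMIs of all cells of a lineage were summed per mouse and tissue and tested with edgeR (quasi-likelihood F test, mouse as block, Benjamini-Hochberg adjusted over all genes tested in that lineage). Levels are in CPM of the sum, and differences are log2 fold changes of tumor over lung with their standard errors. In such sums, more cells that express a gene and more of its RNA per cell cannot be told apart. A gene was tested when enough of the sums held it, so one at 0 in all lungs entered through the tumors alone. The gene lists were chosen with earlier results of these data known. Their counts and medians below are therefore descriptions. In monocytes, 735 of 6377 genes were higher (11.5%) and 845 lower (13.3%) in tumors, and the median of all tested genes was 0.02. Without mouse 9, these were 401 and 412. The defining monocyte markers were present in both tissues, with a summed level of 19000 to 27600 CPM in the lungs and 16400 to 24800 CPM in the tumors. Markers of other cells were present as well. The 5 DC markers summed to 437–505 CPM in lungs and 11700–15300 CPM in tumors, of which Cd74 and H2-Aa, themselves among the results below, made up at least 95.7% of the UMIs in every sum. The other 3 (Flt3, Itgax and Zbtb46) summed to 9.46–22 CPM in lungs and 83.7–166 CPM in tumors, with Zbtb46 at 0 in all lungs. The 7 neutrophil markers summed to 1100–2050 CPM in lungs and 132–170 CPM in tumors. Without S100a8 and S100a9, which are also results below, the other 5 summed to 92.8–162 CPM in lungs and 99.3–101 CPM in tumors, so that the groups overlapped. The 4 macrophage markers summed to 651–783 CPM in lungs, with C1qa and Mrc1 at 0, and to 1790–1960 CPM in tumors. The part of such cells in the monocyte results was not tested.

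The largest rises in tumor monocytes by the naming rule were Dab2, Mmp12 and C3ar1. Dab2, an endocytic adaptor (chr15:6299788-6440712 in mm10), had no UMI in any lung and 284, 488 and 431 CPM in the tumors of mice 8, 9 and 10, which is at least 59.8-fold higher against a floor of 3 UMIs per sum (adjusted p = 2.53e-12). Mmp12, the macrophage elastase (chr9:7344381-7369499), was likewise at 0 in the lungs and at 568, 109 and 374 CPM in the tumors, at least 52.2-fold higher. C3ar1, the receptor for complement C3a (chr6:122847138-122856161), reached 226, 286 and 489 CPM from 0, at least 49.7-fold higher. Syndecan Sdc4 (at least 28.5-fold), the mannose receptor Mrc1 (at least 21.9-fold), the membrane metalloproteinase Mmp14 (at least 21.6-fold) and Ocstamp (at least 18.9-fold), known from osteoclast fusion, followed the same pattern of 0 in all 3 lungs. All 7 were at 10 CPM or below in both sets of relapse-free lungs, too low for the batch measure to be read. Spp1, encoding the secreted protein osteopontin (chr5:104435118-104441050), was at 9.77, 0.00 and 1.89 CPM in the lungs and at 768, 631 and 626 CPM in the tumors (log2 7.51 ± 0.43, adjusted p = 1.86e-13), and at 0 in all relapse-free lungs.

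Of the 22 macrophage maturation genes listed, 18 were tested, 15 rose and none fell (11 of the 15 under 2-fold apart between batches, low genes included). Their median log2 fold change was 3.13, against 0.02 for all genes. Members at 0 in all lungs, such as C1qa and Mrc1, entered the test through the tumors alone, so these values are a description. C1qa, a chain of the complement component C1q, was absent from the lungs and at 55.8, 46.1 and 146 CPM in the tumors, at least 12.3-fold higher. The fatty acid binding protein Fabp5 went from 14.6, 2.38 and 7.56 to 216, 178 and 162 CPM (log2 4.57 ± 0.49). The groups did not overlap for either gene. The lipoprotein Apoe rose little, from 662, 570 and 575 to 1090, 920 and 914 CPM (log2 0.74 ± 0.19, adjusted p = 0.00442, or 0.0741 without mouse 9). Trem2, the lipid receptor of tumor-associated macrophages, did not pass the test and had the opposite sign, at 68.4, 64.1 and 47.3 CPM in the lungs and 30.4, 12.7 and 28.0 CPM in the tumors (log2 −1.34 ± 0.59, adjusted p = 0.106). Of 22 lysosome genes tested, 15 rose and 1 fell. The protease Lgmn stood out among them (24.4, 57.0 and 51.1 CPM in lungs, 563, 599 and 636 in tumors, log2 3.83 ± 0.29, adjusted p = 4.37e-11). The lysosomal membrane gene Lamp1 was the one that fell (log2 −0.57 ± 0.21, adjusted p = 0.0445), and its call was lost without mouse 8, 9 or 10 (0.191, 0.178 and 0.141).

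MHC class II genes, which present peptides to CD4 T cells, rose as a block, with all 8 tested of 10 listed called higher (median log2 3.64). Cd74, the invariant chain that guards the binding groove, went from 156, 112 and 102 CPM to 9050, 9510 and 7530 CPM (log2 6.20 ± 0.20, adjusted p = 3.74e-19) and was 502 and 589 CPM in the relapse-free lungs of the 2 sets. H2-Ab1 went from 681, 665 and 1440 to 13600, 10700 and 9920 CPM (log2 3.75 ± 0.21), and H2-Aa from 327, 314 and 337 to 6120, 4230 and 4000 CPM (log2 3.90 ± 0.19, adjusted p = 1.03e-14). Every tumor exceeded every lung for each of these chains. H2-Aa was lower in the relapse-free lung of the later batch (231 against 886 CPM), so its batch measure ran against the rise in tumors, as it did for 6 of the 8 genes. Ciita, the master regulator of the group, rose from 39.1, 4.75 and 7.56 to 109, 152 and 74.9 CPM (log2 2.98 ± 0.58, adjusted p = 0.000244). Mir5107, also among the 8 largest rises by the naming rule, lies inside the last part of Cd74 on the same strand, so its reads cannot be assigned to a miRNA and it is not interpreted. Of 13 MHC class I genes tested, 4 rose.

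Type I interferon response genes rose with no exception in direction among those called. Of 28 listed, 26 were tested, 17 rose and none fell, with a median log2 of 1.64. Isg15, a ubiquitin-like protein (chr4:156199424-156200818), went from 22, 26.1 and 28.4 to 411, 419 and 735 CPM (log2 4.37 ± 0.31, adjusted p = 1.30e-11), and was 64.4 and 64.3 CPM in the 2 sets of relapse-free lungs. Irf7, the transcription factor that amplifies the response, went from 139, 152 and 104 to 527, 562 and 850 CPM (log2 2.33 ± 0.26, adjusted p = 7.99e-08), with 277 and 265 CPM in relapse-free lungs. Ifit3, which binds foreign RNA as part of the Ifit family, went from 7.32, 49.9 and 41.6 to 223, 394 and 733 CPM (log2 3.85 ± 0.34), although it was lower in the later batch of relapse-free lungs (31.0 against 191 CPM). The tumor of mouse 10 was the highest for each of these and no tumor overlapped a lung. Rsad2, an antiviral enzyme, was at 12.2, 19 and 18.9 CPM in lungs and at 98.9, 122 and 544 CPM in tumors (log2 3.73 ± 0.44), and was batch-linked in the same direction. Of the 17, 7 were not batch-linked and 6 were higher in the later batch as well.

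Promoters of interferon response genes commonly carry a pair of GAAA repeats, the core of the element bound by the interferon-activated factor complex. The windows from 250 bases before to 50 bases after the RefSeq start (build GRCm38.p6) were searched on both strands for GAAA followed, after any 2 bases, by another GAAA. A window was found for 13 of the 17 genes that rose, and 8 of the 13 held the motif. It was present in 188 of 4204 windows of genes tested in monocytes (4.47%) and in 943 of all 27025 windows (3.49%). Of 5 interferon genes with a window that were not called, 3 held it. Since fewer than 80% of the genes had a window, no comparison of these shares is made. The first match found for each of the 8 genes is shown, with 8 bases on either side and the motif in capitals. The shared core can thus be seen beside the values of these genes. Further matches, such as those that overlap the first in Isg15 and Bst2, are left in lower case.
Ifit1, chr19:34640796-34640821, minus strand: agcagtgaGAAACTGAAActgagact
Ifit3, chr19:34583399-34583424, minus strand: ggaaagtaGAAACTGAAAcagactta
Ifit3b, chr19:34607795-34607820, minus strand: ggaaagtaGAAACTGAAAcagactta
Isg15, chr4:156200879-156200904, minus strand: tgccgtagGAAAAGGAAAccgaaaca
Rsad2, chr12:26456555-26456580, plus strand: tgttttctGAAAATGAAAgttggacc
Bst2, chr8:71537585-71537610, minus strand: cattccagGAAAATGAAActgaaagg
Stat2, chr10:128270268-128270293, minus strand: agggaaagGAAACTGAAAccagggtg
Ddx58, chr4:40239806-40239831, plus strand: ggccatagGAAATCGAAActgcctca

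The windows of Ifit3 and Ifit3b were identical over these bases. The core GAAACTGAAA was the match in capitals in Ifit1, Ifit3, Ifit3b and Stat2. Bst2 held it too, in a second match that overlaps the one in capitals. Ifit1 went from 14.6, 38.0 and 35.9 to 98.9, 157 and 324 CPM (log2 2.70 ± 0.40). Ifit3b went from 2.44, 9.50 and 18.9 to 101, 89.8 and 134 CPM (log2 3.48 ± 0.57). Reads shared by these near-identical neighbors were excluded by the authors' mapping, so the split between Ifit3 and Ifit3b is uncertain. The antiviral membrane protein Bst2 went from 103, 66.5 and 47.3 to 398, 241 and 386 CPM (log2 2.32 ± 0.30) and was not batch-linked, while Stat2, a subunit of the factor itself (log2 2.74 ± 0.51), and the RNA sensor Ddx58 (log2 1.57 ± 0.47, adjusted p = 0.0143) were batch-linked in the same direction. Interferon-gamma response genes rose alongside. Of 18 listed, 13 were tested and 9 rose (7 not batch-linked), among them the guanylate-binding protein Gbp2 (22, 23.8 and 35.9 CPM in lungs, 78.6, 173 and 323 in tumors, log2 2.75 ± 0.40) and the T cell-attracting chemokine Cxcl10 (0.00, 0.00 and 22.7 against 302, 196 and 535, log2 5.63 ± 0.49, adjusted p = 6.02e-10).

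Glycolysis and hypoxia genes made a further group. Of 27 listed, 20 were tested, 14 rose and none fell (median log2 1.90), and 9 of the 14 were not batch-linked. Ldha, which makes lactate from pyruvate, went from 393, 309 and 403 to 1810, 983 and 1380 CPM (log2 1.93 ± 0.20, adjusted p = 1.88e-08). Tpi1, an enzyme of the middle of the pathway, went from 144, 83.1 and 79.4 to 771, 402 and 589 CPM (log2 2.58 ± 0.25, adjusted p = 6.90e-09). Bnip3, a hypoxia-induced gene of mitochondrial removal, went from 29.3, 45.1 and 28.4 to 388, 104 and 250 CPM (log2 2.73 ± 0.41, adjusted p = 8.63e-06). The tumor of mouse 9 was the lowest of the 3 tumors for each of them, yet above every lung. The glucose transporter Slc2a1 (17.1, 38.0 and 11.3 CPM in lungs, 297, 57.6 and 248 in tumors, log2 3.02 ± 0.54) and the pyruvate kinase Pkm (log2 2.38 ± 0.19) were batch-linked in the same direction. Pgk1 did not pass (log2 0.40 ± 0.32, adjusted p = 0.409).

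Chemokines and inflammatory mediators rose in most of their tested members. Of 11 chemokines tested, 9 rose and 1 fell. Cxcl16, a membrane-bound chemokine for Cxcr6-bearing T cells, went from 2.44, 2.38 and 13.2 to 226, 206 and 291 CPM (log2 5.32 ± 0.47, adjusted p = 1.01e-09), against a batch measure in the opposite direction. Ccl2, which draws monocytes, went from 51.3, 19 and 35.9 to 88.8, 137 and 185 CPM (log2 2.02 ± 0.45, adjusted p = 0.00108, or 0.0599 without mouse 9). Ccl6 was the chemokine that fell (2200, 2300 and 1720 against 1580, 1260 and 885 CPM, log2 −0.72 ± 0.17, adjusted p = 0.00257), a call lost without mouse 9 (0.146) or mouse 10 (0.0594). Il1b, the inflammatory cytokine interleukin-1β, was at 1100, 1100 and 1060 CPM in the lungs and at 2700, 2680 and 2790 CPM in the tumors (log2 1.37 ± 0.17, adjusted p = 3.45e-07), 2 tight and separate groups. Its natural antagonist Il1rn went from 24.4, 49.9 and 30.3 to 276, 246 and 332 CPM (log2 3.09 ± 0.35). Of 14 matrix and protease genes tested, 10 rose and 2 fell. Cd274, the ligand of the checkpoint receptor PD-1, rose from 4.88, 16.6 and 7.56 to 68.5, 44.9 and 126 CPM (log2 3.01 ± 0.66, adjusted p = 0.000899). Among 16 immediate early genes, which respond to stress and dissociation, 10 rose, with Jun at 75.7, 30.9 and 64.3 CPM in lungs and 700, 997 and 855 in tumors (log2 3.96 ± 0.29), while Fos barely differed (log2 0.52 ± 0.16, adjusted p = 0.0158, or 0.226 without mouse 9 and 0.127 without mouse 10). The part of the 2 dissociation programs in these genes was not tested.

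**Figure D4:**
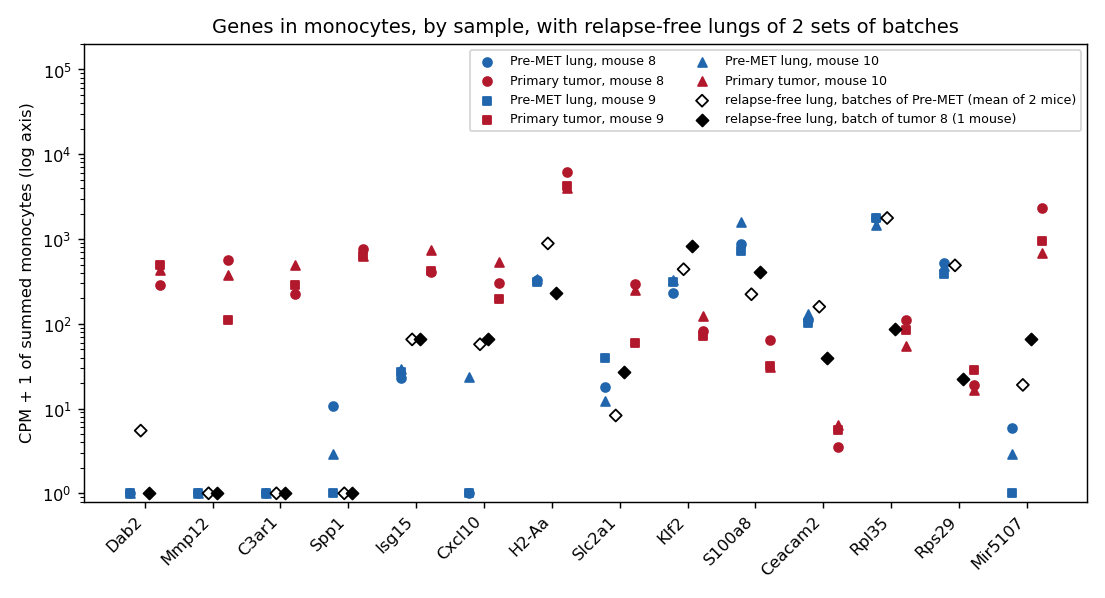
Level of 14 genes in summed monocytes on a log axis (CPM + 1), with 1 marker per mouse for Pre-MET lungs and primary tumors and diamonds for relapse-free lungs of the earlier (open) and later (filled) batches. The tumors lie above the lungs for Dab2, Mmp12, C3ar1, Spp1, Isg15, Cxcl10, H2-Aa, Slc2a1 and Mir5107, and for Rpl35 and Rps29 the later relapse-free lung lies at the level of the tumors.

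Recirculation genes and most of the called patrolling genes were lower in tumor monocytes. All 5 tested recirculation genes were lower (median log2 −1.56), 3 of them not batch-linked. Klf2, a transcription factor of circulating leukocytes, went from 232, 309 and 329 to 81.1, 71.4 and 124 CPM (log2 −1.63 ± 0.29, adjusted p = 8.02e-05), whereas relapse-free lungs held 439 and 824 CPM. S1pr4, a receptor for the lipid that guides exit from tissue, had 73.2, 26.1 and 24.6 CPM in lungs and 2.54, 0.00 and 0.00 in tumors, a ratio of pooled counts of 0.0106 with a 95% exact counting interval of 0.000264 to 0.0617. Of 11 patrolling genes, 6 fell and 1 rose, Cd300ld, a receptor of the CD300 family (127, 131 and 130 against 210, 269 and 238 CPM, log2 0.93 ± 0.28, adjusted p = 0.0132, not batch-linked). Among those that fell were Cx3cr1, the fractalkine receptor (129, 85.5 and 70.0 against 7.61, 11.5 and 12.6 CPM, log2 −2.97 ± 0.56, batch-linked), and Adgre4 (171, 178 and 174 against 27.9, 66.8 and 36.1 CPM, log2 −2.00 ± 0.38, not batch-linked). Of 12 inflammatory monocyte genes, 7 fell and 3 rose. The antioxidant enzyme Mgst1 went from 886, 722 and 790 to 122, 184 and 99.3 CPM (log2 −2.55 ± 0.24, adjusted p = 3.39e-09) and the chitinase-like Chil3 from 2390, 1270 and 1510 to 862, 817 and 497 CPM (log2 −1.19 ± 0.19). The members that rose were the receptors Ccr2 (log2 0.70 ± 0.21, adjusted p = 0.0139, or 0.298 without mouse 9) and Ccr1 (log2 2.68 ± 0.28), which bind monocyte chemokines, and the proteoglycan Vcan (log2 1.49 ± 0.22). Ccr1 and Vcan were batch-linked in the same direction.

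The largest falls by the naming rule included S100a8, S100a9 and several ribosomal genes. S100a8 and S100a9, paired calcium-binding proteins abundant in neutrophils and also made by inflammatory monocytes, fell from 879, 724 and 1590 to 63.4, 31.1 and 29.8 CPM (log2 −4.69 ± 0.30, adjusted p = 2.15e-12) and from 134, 219 and 321 to 5.07, 17.3 and 2.71 CPM (log2 −4.81 ± 0.51). The other 5 neutrophil markers overlapped between the tissues, as given above, and relapse-free lungs held 222 and 403 CPM of S100a8 in the earlier and later batches. The ribosomal proteins Rpl35 (1760, 1760 and 1450 against 109, 84.0 and 54.2 CPM, log2 −4.34 ± 0.23), Rps29 (log2 −4.43 ± 0.32) and Rps10 (log2 −4.40 ± 0.32) fell as far. Relapse-free lungs showed the same step between batches for Rpl35, from 1770 to 85.8 CPM, for Rps29, from 488 to 21.4 CPM, and for Rps10, from 430 to 16.7 CPM. Of 71 ribosomal genes tested, 31 fell and 3 rose, and 24 of the 31 were batch-linked in the same direction. The same held for mt-Co2, a mitochondrial subunit of cytochrome oxidase (2380, 2720 and 2730 against 330, 413 and 333 CPM, and 2510 against 336 CPM in relapse-free lungs). Pseudogenes made up 46.4% of the matched genes called lower in monocytes, 5.09% of those called higher and 9.09% of those not called. Ribosomal genes share reads with their many pseudogene copies, and the authors left out reads with several positions, so their levels are uncertain. Of 70 oxidative phosphorylation genes tested, 27 fell and 2 rose (median log2 −0.52), and 20 of the 27 were not batch-linked. Uqcr11, a subunit of respiratory complex III, was such a case (832, 546 and 686 against 281, 419 and 302 CPM, log2 −0.99 ± 0.23, adjusted p = 0.0015).

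**Figure D5:**
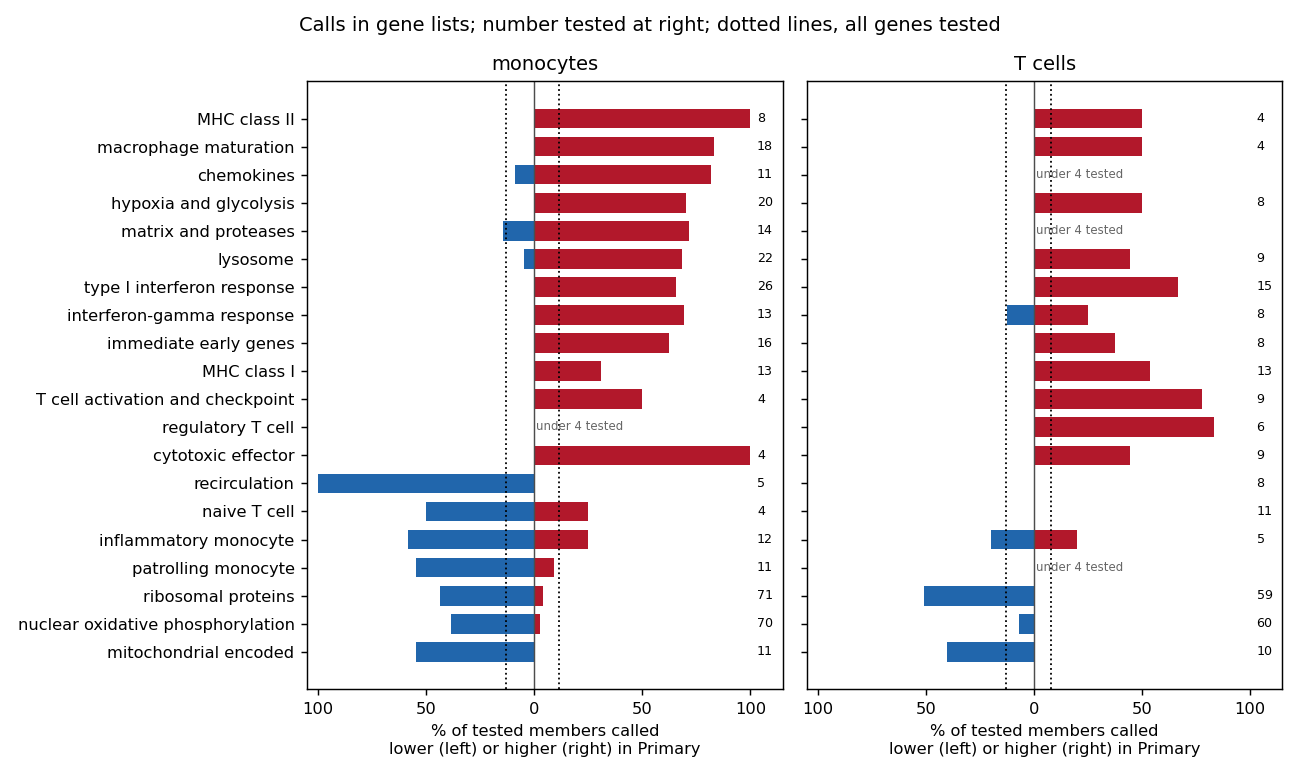
Percentage of the tested members of each gene list called lower (left) or higher (right) in primary tumors, for monocytes and T cells, with the number tested at the right and the background over all genes as dotted lines (11.5% higher and 13.3% lower in monocytes). All 8 MHC class II genes tested in monocytes were higher, and all 5 recirculation genes lower. The lists were chosen with earlier results of these data known.

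Since the monocyte sums hold different subpopulations in the 2 tissues, those with at least 10 cells in every sample were also tested alone. In Mon Fn1, 85 of 3802 genes were higher (2.24%) and 182 lower (4.79%). Without mouse 8 these were 56 and 144, without mouse 9, 40 and 82, and without mouse 10, 44 and 100. Interferon genes rose here too, with 8 of 22 type I interferon genes tested called higher. Isg15 went from 18.2, 22.7 and 25.0 to 306, 200 and 452 CPM (log2 3.73 ± 0.69, adjusted p = 7.68e-05), and Cxcl10 from 0.00, 0.00 and 15.0 to 51.1, 229 and 985 CPM (log2 6.40 ± 0.83, adjusted p = 2.38e-08). The calls of Ifit1, Ifit2, Irf7 and Rsad2 were lost without mouse 10 (adjusted p from 0.0829 for Rsad2 to 0.785 for Ifit1). Jun (66.9, 35.7 and 55.0 against 970, 686 and 935 CPM) and Pkm (356, 435 and 438 against 1810, 1770 and 1630 CPM) rose as well, without overlap. None of the 4 recirculation or 7 patrolling genes tested in Mon Fn1 was called, and with 4.79% of all genes lower in this population, 0 of so few lies at the background. Klf2 was at 231, 295 and 258 CPM in lungs and 434, 100 and 483 in tumors (log2 0.10 ± 0.50, adjusted p = 0.959). Of 12 inflammatory monocyte genes, 2 rose and none fell. No test of the difference between the Mon Fn1 and the whole monocyte result was made.

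In Mon MHC-II monocytes, 182 of 1959 genes were higher (9.29%) and 111 lower (5.67%). The lectin receptor Clec4n was at 0 in the lungs and at 1370, 1190 and 1120 CPM in the tumors, at least 11.4-fold higher, Spp1 at 0 against 435, 1050 and 671 CPM, at least 6.73-fold, and the actin-severing gelsolin Gsn at 0 against 478, 786 and 592 CPM, at least 5.78-fold. Of 7 MHC class II genes, 6 rose although the population is defined by them. H2-Aa went from 2580, 4030 and 5090 to 10900, 7530 and 7090 CPM (log2 1.43 ± 0.36). H2-Ab1 overlapped, at 6310, 8560 and 20500 CPM in lungs and 25300, 19000 and 17800 CPM in tumors (log2 1.28 ± 0.39, adjusted p = 0.0185, or 0.114 without mouse 9). Of the other lists, 10 of 21 lysosome, 6 of 9 matrix, 5 of 18 type I interferon and 4 of 11 glycolysis genes rose. The lungs gave only 15 to 17 cells a sum. No gene was called without mouse 10, although 370 had an unadjusted p below 0.05.

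In T cells, 186 of 2317 genes were higher (8.03%) and 302 lower (13%) in tumors, with a median of 0.13 over all genes. Without mouse 9 these were 44 and 113, and without mouse 10, 45 and 104. The T cell markers were present in both tissues (2930–3620 CPM summed in lungs, 3840–4750 CPM in tumors), while the 7 neutrophil markers summed to 643–1120 CPM in lungs and 25.3–72.1 CPM in tumors and the 5 DC markers to 37.1–48.0 and 421–633 CPM. Without S100a8 and S100a9, the neutrophil markers summed to 11.9–96.0 CPM in lungs and 8.78–16.8 CPM in tumors, on 1 to 12 UMIs a sum. Without Cd74 and H2-Aa, the DC markers were at 0 in all lungs and at 8.78–43.9 CPM in tumors, on 1 to 14 UMIs. The 5 monocyte markers summed to 1040–1240 CPM in lungs and 1770–2310 CPM in tumors, without overlap. The part of such cells in the T cell results was not tested. Checkpoint and activation receptors were among the groups that rose, with 7 of 9 tested of 16 listed called higher and none lower (median log2 3.60, or 2.68 with genes at 0 in 1 tissue set at their bound). Tnfrsf9, Pdcd1 and Tigit were at 0 in all lungs and entered the test through the tumors alone, so the count is a description. Of the 7, 4 were also higher in the later batch of relapse-free lungs, and 2 were under 2-fold apart between the batches. Tnfrsf9, the costimulatory receptor 4-1BB (chr4:150914562-150946102), had no UMI in the lungs and 702, 286 and 636 CPM in the tumors, at least 16.8-fold higher, batch-linked in the same direction. Pdcd1, which encodes PD-1 (chr1:94038305-94052553), went from 0 to 211, 101 and 273 CPM, at least 6.04-fold, and was 27.3 and 26.5 CPM in the relapse-free sets. T cells of distal normal lung in the later batch held 104 CPM of Pdcd1, above the tumor of mouse 9. Tigit went from 0 to 123, 135 and 226 CPM, at least 4.99-fold, and was batch-linked in the same direction (1.86 against 17.0 CPM). The costimulatory receptor Tnfrsf4, OX40, went from 0.00, 16 and 37.1 to 1540, 589 and 746 CPM (log2 5.62 ± 0.59, adjusted p = 0.000107), against a batch measure of 92.5 to 7.56 CPM. Ctla4, the inhibitory receptor of Treg, went from 0.00, 8.00 and 61.8 to 290, 185 and 235 CPM (log2 3.60 ± 0.85, adjusted p = 0.0123). Tumors lay above Pre-MET lungs for all of these receptors. The calls of Pdcd1, Tigit and Ctla4 were lost without mouse 9 (adjusted p = 0.0522, 0.0799 and 0.146), and those of Pdcd1 and Tigit without mouse 10 (0.0949 and 0.122).

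The same receptors overlap with the Treg list, in which 5 of 6 tested genes rose. Treg were 0.71% of lung and 22.6% of tumor T cells. The rise of this list cannot be told apart from the Treg counts and is a description. Il2ra, the interleukin-2 receptor α chain, went from 0.00, 8.00 and 12.4 to 176, 147 and 135 CPM, a pooled ratio of 21.2 (95% exact counting interval 5.71 to 177), with adjusted p values of 0.122 and 0.0949 without mouse 9 and mouse 10. The transcription factor Ikzf2 went from 11.9, 24.0 and 98.8 to 913, 1100 and 799 CPM (log2 4.54 ± 0.53, adjusted p = 0.000191) and was batch-linked. Penk, which encodes the opioid precursor proenkephalin (chr4:4133531-4138819), was the largest rise by the naming rule, with 0 in all lungs and 807, 421 and 624 CPM in the tumors, at least 19.1-fold higher, and 0 in all relapse-free T cells. Spp1 also appeared in tumor T cells, at 676, 147 and 492 CPM against 0 (at least 13.6-fold), beside macrophage markers of 75.8–96.5 CPM in tumors and 24.0–71.5 CPM in lungs. Relapse-free T cells held 7.87 and 13.2 CPM of Spp1 in the earlier and later batches, and T cells of distal normal lung in the later batch 232 CPM, above the tumor of mouse 9. Whether Spp1 came from T cells was not tested.

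Effector, interferon and MHC class I genes rose in part. Gzmb, the cytotoxic protease granzyme B, went from 119, 104 and 86.5 to 799, 602 and 558 CPM (log2 2.69 ± 0.35, adjusted p = 0.000425), while it was lower in the later relapse-free lung. With the NK receptors Klrd1 and Klrk1 and the protease Ctsw, it made 4 of 9 cytotoxic genes tested that rose. The calls of Klrd1, Klrk1 and Ctsw were lost without mouse 9 (adjusted p = 0.17, 0.176 and 0.142) and without mouse 10 (0.128, 0.143 and 0.238). The perforin gene Prf1 did not pass (0.00, 88.0 and 49.4 CPM in lungs, 8.78, 139 and 107 in tumors, adjusted p = 0.479). The chemokine receptor Cxcr6, the partner of Cxcl16, went from 0.00, 72.0 and 24.7 to 281, 375 and 216 CPM (log2 3.29 ± 0.70, adjusted p = 0.00724, or 0.0812 without mouse 9 and 0.085 without mouse 10). Of 15 type I interferon genes tested, 10 rose and none fell, with 6 of the 10 also higher in the later batch and 4 under 2-fold apart. Of 13 MHC class I genes, 7 rose, 6 of them not batch-linked. H2-K1, a classical class I heavy chain, went from 1370, 976 and 1350 to 3620, 3890 and 3560 CPM (log2 1.65 ± 0.25, adjusted p = 0.000913), with separate groups.

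Glycolysis genes rose in 4 of 8 tested. Pkm went from 95.3, 64.0 and 98.8 to 1130, 1110 and 1030 CPM (log2 3.73 ± 0.34, adjusted p = 4.63e-05), with 177 and 240 CPM in relapse-free T cells. The naive T cell list gave 0 calls in 11 tested, where 8.03% of all genes were higher and 13% lower, so that 0 of so few lies near the background. Neither the circulation factor Klf2 (log2 −0.49 ± 0.50, adjusted p = 0.547) nor the naive factors Lef1 (log2 −0.96 ± 0.43, adjusted p = 0.148) and Tcf7 (log2 −0.60 ± 0.39, adjusted p = 0.328) passed, in sums in which naive CD4 Lef1 cells were fewer. The falls were led by S100a8 (465, 704 and 642 against 8.78, 8.42 and 28.2 CPM, log2 −5.17 ± 0.51, adjusted p = 7.78e-05) and by ribosomal genes and their pseudogenes, such as Rpl35 (4970, 4830 and 3850 against 140, 126 and 135 CPM), which dropped between batches in relapse-free lungs too (3730 to 371 CPM). Of 59 ribosomal genes tested, 30 fell and none rose.

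In CD4 Lef1 cells alone, 39 of 1076 genes were higher (3.62%) and 81 lower (7.53%). Pkm rose from 22.3, 22.4 and 37.5 to 286, 457 and 945 CPM (log2 4.48 ± 0.65, adjusted p = 0.0061). The hypoxia-responsive factor Hif1a went from 0.00, 56.0 and 0.00 to 408, 297 and 480 CPM (log2 4.43 ± 1.09, adjusted p = 0.0397). Both genes were higher in every tumor than in any lung. None of 11 naive genes was called, with Tcf7 at a log2 of −0.20 (adjusted p = 0.855). S100a8, which is abundant in neutrophils, fell here as well (490, 705 and 638 against 0.00, 11.4 and 0.00 CPM). It was lower in all 4 lineages, and the part of other cells in this fall was not tested. Without mouse 10 no gene was called, with 203 at an unadjusted p below 0.05.

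In DCs, 32 of 1629 genes were higher (1.96%) and 39 lower (2.39%), and the lungs gave only 12, 12 and 13 cells with 18472 to 26694 UMIs a sum. The decoy receptor Il1r2, which binds interleukin-1 without signaling (chr1:40074079-40125231), was at 0 in the lungs and at 831, 580 and 1320 CPM in the tumors, at least 6.74-fold higher (adjusted p = 0.000504). Clec4n, at 0 against 528, 250 and 713 CPM, was at least 3.67-fold higher, and Isg15, at 0 against 419, 454 and 339 CPM, at least 2.99-fold. Cd74 went from 2140, 1030 and 1490 to 14100, 12700 and 15500 CPM (log2 3.50 ± 0.43, adjusted p = 9.04e-05), and 3 of 8 MHC class II genes rose. The maturation receptor Ccr7, by which DCs reach lymph nodes, was at 0.00, 0.00 and 1180 CPM in lungs and 1620, 825 and 600 CPM in tumors (log2 2.82 ± 1.13, adjusted p = 0.181), and the lung of mouse 10 held the 1 migDC of the lungs. None of 10 maturation genes tested passed, with a median log2 of 1.99 against 0.39 for all genes. Myl6, a myosin light chain, fell from 1090, 595 and 918 to 51.5, 43.0 and 47.1 CPM (log2 −3.87 ± 0.74). No gene was called in DCs without mouse 10 (184 at an unadjusted p below 0.05), which left 2 pairs, although the log2 values stayed near those of all mice (9.70 for Il1r2 with an adjusted p of 0.323, 3.58 for Cd74 with 0.287). The calls of Isg15 and Myl6 were also lost without mouse 8 (adjusted p = 0.0517 and 0.0929). The defining DC transcription factor Zbtb46 had no UMI in the DCs of the lungs. Markers of other cells differed as well. The 5 monocyte markers summed to 1920–2880 CPM in lungs and 888–1640 CPM in tumors, and the 7 neutrophil markers, mostly S100a8 and S100a9, to 187–1030 and 6.28–25.8 CPM, on at most 19 UMIs. Neither pair of ranges overlapped. The 4 macrophage markers overlapped, at 74.9–699 CPM in lungs and 379–947 CPM in tumors. The part of such cells in the DC results was not tested.

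In B cells, 22 of 700 genes were higher (3.14%) and 49 lower (7%). Without mouse 8 these were 6 and 14, and with Pre-MET plates of 1 batch, 5 and 28. Their markers were present in both tissues (1990–4000 CPM summed in lungs, 3580–4970 CPM in tumors). The 7 neutrophil markers summed to 685–1430 CPM in lungs and 9.81–103 CPM in tumors, of which S100a8 and S100a9 made up at least 88.5% of the UMIs in every lung. The 5 monocyte markers summed to 373–685 CPM in lungs and 123–196 CPM in tumors, so neither list overlapped. The 5 DC markers summed to 3950–6110 CPM in lungs and 13200–19700 CPM in tumors. Without Cd74 and H2-Aa, they were at 0 in all lungs and at 7.96–82.6 CPM in tumors, on 1 to 4 UMIs. The part of such cells in the B cell results was not tested. The lungs gave only 18989 to 32189 UMIs a sum, with 3, 0 and 1 UMIs of Pkm and 3, 2 and 2 of Cd79a. Pkm was one of the rises without a batch link, at 158, 0.00 and 50.9 CPM in lungs and 496, 1090 and 824 CPM in tumors (log2 3.89 ± 0.92, adjusted p = 0.0121, or 0.0986 without mouse 9). Cd79a, a signaling chain of the B cell receptor, rose from 158, 62.1 and 102 to 1470, 764 and 1260 CPM (log2 3.62 ± 0.58, adjusted p = 0.00155), but it rose from 201 to 1600 CPM between batches in relapse-free B cells. Cd74 (log2 3.57 ± 0.41) was batch-linked likewise. The antibody heavy chain Ighm (log2 0.01 ± 0.36) and the surface marker Ms4a1 (log2 0.12 ± 0.48) did not pass. Only 7 of the higher and 8 of the lower calls in B cells were under 2-fold apart between the batches.

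Across the 4 lineages, 581 genes were tested in all. Of these, 5 were higher in every lineage (Cd74, Cfl1, Gm12319, Pfn1 and Selenow) and 29 lower, the latter mostly ribosomal and mitochondrial genes and pseudogenes, with Crip1 and S100a8. Pfn1, which supplies actin monomers, went from 1110, 1180 and 1240 to 4810, 3830 and 4210 CPM in monocytes (log2 1.91 ± 0.17), without a batch link. Crip1, a LIM-domain protein, went from 6900, 8590 and 5840 to 849, 1600 and 1030 CPM in monocytes (log2 −2.60 ± 0.17), also without a batch link. Of 2168 genes tested in both monocytes and T cells, 98 were higher in both, 277 lower in both and 0 called in opposite directions.

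A test of the difference between the tissue effects in monocytes and in T cells called 28 of 7355 genes (0.381%), of which 15 had passed the filter in both lineages. Jun rose by a log2 of 3.96 in monocytes and had a log2 of 0.23 in T cells (adjusted p = 0.885), a difference of 3.66. The signaling adaptor Dok2 rose by 7.07 in monocytes and had 1.44 in T cells (adjusted p = 0.212), a difference of 5.58. H2-Ab1 rose in both, by 3.75 and 1.73, with a difference of 2.03. The lysosomal protease Ctsb rose by 0.74 in monocytes and by 3.51 in T cells, a difference of −2.77. The T cell sums of the lungs held only 8, 10 and 6 UMIs of H2-Ab1 and 3, 3 and 3 of Ctsb. The part of other cells in these T cell values was not tested. Of the listed glycolysis and type I interferon genes, Ifi27l2a alone was among these 15, as were Ifi208 and Ly6a, which interferon also induces but which are not on the list.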

How the data were processed

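Sorted single cells, 1 per well of 384-well plates, were profiled by 3′ end SPID-seq, which counts each captured transcript once through a unique molecular identifier (UMI). Per the labels and the study's methods, the authors mapped reads to mm10 with HISAT, left out reads with several mapping positions, assigned reads to exons and collapsed them to UMIs. The deposited values are raw UMI counts per gene and well (52542 gene rows), without normalization. The gene annotation version is not given in the sources used here. Subpopulations are those of the authors' annotation, which keeps cells of at least 500 UMIs. Dead cells and doublets were gated out at sorting, no cells were clustered again and no doublet caller was run. Cells labelled as tumor, erythrocyte or outlier were left out. Totals per sample were 611346 to 738329 UMIs in Pre-MET lungs and 833220 to 2631384 in primary tumors. Intervals cover counting error only.

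Counts were summed per mouse, tissue and lineage (sums of at least 10 cells, or down to 6 under the alternatives of plates and depth) and tested with edgeR 4.0.16 under R 4.3.3 (filterByExpr, TMM, quasi-likelihood F test with mouse as a block, p adjusted by Benjamini-Hochberg, 0.05 as threshold), as were cell counts of subpopulations with at least 10 cells, with the immune cells of a sample as library size. The pairing comes from the mouse given in the labels. Same-mouse deviations had a median correlation of 0.047 in monocytes and 0.066 in T cells, against −0.011 and −0.034 between different mice. Deviations were taken from the mean of the 3 mice, which pushes different-mouse values to the opposite sign. The contrast is therefore no check of the pairing. In T cells the values ranged from −0.022 to 0.095 within mice and from −0.12 to 0.096 between mice. With 3 mice, an edgeR p-value for expression rests on 2 residual degrees of freedom of within-mouse differences and on spread borrowed from other genes. The borrowed part counted as 25.2 degrees of freedom in monocytes, 8.75 in T cells, 18.8 in DCs and 11.6 in B cells (medians). Such p-values describe these animals only. Lineage shares were compared by exact sign-flip permutation tests (Python 3.11.15, scipy 1.17.1). DESeq2 1.42.0, other normalization, filters, depth, plates, mice and the fit without the block were alternatives. On simulated counts with 200 genes changed by a log2 of 2, fewer where a lineage tested fewer, 60.5% were recovered in monocytes, 64% in T cells, 17% in DCs and 32.1% in B cells.

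The genes named are, in each lineage fit, the 8 largest rises and 8 largest falls among calls with the same direction in all 3 mice and at least 100 CPM in the higher tissue, 3 each in a subpopulation, and members of the gene lists. Predicted genes were passed over, and a selection is printed. Results for some genes are not reported here, and counts include them. The members and lists were chosen with earlier results of these data known, so they support nothing by themselves. Gene positions are from GENCODE vM21 of the same build, and promoter windows from RefSeq.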

Additional observations from a re-analysis of the deposited data

Results flagged for a closer look

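The effect of tissue differed between monocytes and T cells by an edgeR test of the difference itself for 15 genes tested in both, given here as the log2 fold change of tumor over lung in monocytes minus that in T cells. The difference was positive for Dok2 (5.58), Jun (3.66), Ifi208 (3.49), Wfdc17 (2.48), Ly6a (2.35) and H2-Ab1 (2.03). It was negative for Pglyrp1 (−5.43), Tbc1d10c (−3.40), Sdf4 (−2.94), Ctsb (−2.77), Capg (−2.71), Sec11c (−2.03), Crip1 (−1.61), Ifi27l2a (−1.39) and Lgals1 (−1.33). Of these, Pglyrp1, a bactericidal protein, rose in T cells (log2 4.05) and did not pass the test in monocytes (log2 −1.37, edgeR adjusted p = 0.165), whereas Wfdc17 and Crip1 fell in both lineages, by unequal amounts. The T cell sums of the lungs held only 0, 1 and 4 UMIs of Pglyrp1 and 3, 2 and 1 of Capg. The part of other cells in the T cell values was not tested.

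Cells annotated as tumor, which were left out of all immune shares, were also recorded in the primary tumor sorts although the gate was set on CD45. They made up 4 of 299 annotated cells in mouse 8 (1.34%, 95% exact interval 0.366 to 3.39), 9 of 345 in mouse 9 (2.61%, 1.20 to 4.89), 46 of 450 in mouse 10 (10.2%, 7.58 to 13.4) and 12 of 535 in mouse 38 (2.24%, 1.16 to 3.89). The Pre-MET lungs of mice 8, 9 and 10 held 0 of 453, 0 of 468 and 1 of 491 such cells (0.204% in mouse 10). Control lungs held 1 such cell among 688 in 1 mouse (0.145%) and 0 among 790 and 604 in the others. The interval of mouse 10 lay above those of the other tumors.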

How the results depend on the processing

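Tissue and sequencing batch cannot be told apart, and tumor cells held more UMIs per cell than lung cells. DC, B cell and Mon MHC-II sums of the lungs rest on few cells, as do Mon Fn1 and CD4 Lef1 sums of the tumors. Small differences were not detectable in these sums. No gene called in a lineage or subpopulation fit was called in the opposite direction under any alternative. Among the named genes and the subpopulations, none with a call changed sign. The test between monocytes and T cells was not part of this check. Calls are given as higher and lower. Leaving out 1 mouse gave 401–841 and 412–909 in monocytes, 44–248 and 104–334 in T cells, 0–28 and 0–21 in DCs, 6–27 and 14–40 in B cells, 40–56 and 82–144 in Mon Fn1, 0–123 and 0–59 in Mon MHC-II, 0–30 and 0–49 in CD4 Lef1, and 5–9 and 3–6 subpopulations. Without the mouse as a block, the pairing was lost and counts were 698 and 797 in monocytes, 196 and 323 in T cells, 64 and 67 in DCs, 29 and 62 in B cells, 117 and 241 in Mon Fn1, 217 and 153 in Mon MHC-II, 133 lower in CD4 Lef1, and 17 genes in the test between monocytes and T cells. With cells of at least 1000 UMIs, T cells gave 83 and 163, DCs 21 lower, B cells 10 and 22, and the monocyte share differed by −28.85 percentage points. Without a filter on low counts, DCs gave 60 and 12 and B cells 17 lower. Sums thinned to equal totals gave 14 and 20 in DCs and 11 and 30 in B cells. With Pre-MET plates of 1 batch, DCs gave 63 higher and B cells 5 and 28. With the tumor of mouse 38 added and the block dropped, DCs gave 310 and 109 and B cells 41 and 76. With DESeq2, counts were 656 and 740 in monocytes, 186 and 280 in T cells, 46 and 43 in DCs and 24 and 53 in B cells. Leaving out batch-linked genes, an alternative chosen after seeing the data, gave 452 and 344 in monocytes, 117 and 95 in T cells and 7 and 8 in B cells. The cause of these changes was not tested.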

Other observations

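Some smaller groups in monocytes were not described above. Ass1, which makes the arginine precursor argininosuccinate, was at 9.77, 16.6 and 3.78 CPM in the lungs of mice 8, 9 and 10 and at 96.4, 96.7 and 156 CPM in the tumors (log2 3.60 ± 0.58 SE), so that every tumor exceeded every lung. Against 11.5% of all genes higher and 13.3% lower in monocytes, 2 further lists are too short to be read as groups. Of 10 heat shock genes tested, 3 rose, and the inducible chaperone Hspa1a went from 26.9, 0.00 and 20.8 to 434, 182 and 409 CPM (log2 4.58 ± 0.41) but was also higher in the relapse-free lung of the later sequencing batch. Of 5 cell cycle genes tested, Tubb5, a tubulin, rose, and Birc5 and Cenpa, which act at dividing chromosomes, fell.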
